A study of Mus musculus with 23 samples.

Results

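The 10 genes described here are markers and effectors of endoplasmic reticulum and amino acid stress: *Atf4*, *Ddit3*, *Xbp1*, *Hspa5*, *Hsp90b1*, *Dnajb9*, *Herpud1*, *Trib3*, *Chac1* and *Asns*. They were chosen by symbol, as genes of the unfolded protein response and of its Atf4 branch, from the 32793 rows of the deposited gene tables. The choice was made with earlier results of these data known, so counts of members set against all tested genes are descriptions only. They were measured by poly(A) RNA sequencing in C2C12, a mouse myoblast line that divides in serum-rich medium and fuses into multinucleated myotubes when serum is lowered. Cells were either control (WT in the sample titles) or labelled Runx1KO (KO), that is, lacking by name the transcription factor Runx1. Growth medium held 20% fetal bovine serum (day 0), differentiation medium held 2% horse serum, and both genotypes were harvested on days 0, 1, 3 and 6. The titles give the last time as day 6 and the series text as day 5, and the titles are followed here. The 23 libraries form 8 groups of 3, except WT day 0, of which 2 libraries were analysed here. The labels do not say how *Runx1* was disrupted, whether the KO cells are a clone, or whether replicates came from separate cultures, so p-values measure the spread between these libraries, which may be technical.

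Cells meet unfolded proteins in the endoplasmic reticulum with sensors in its membrane. Perk phosphorylates the initiation factor eIF2alpha, which lowers general translation and favours translation of the transcription factor Atf4, whereas Ire1 splices *Xbp1* mRNA and Atf6 is cleaved, and both give transcription factors that induce chaperones and degradation factors. Lack of an amino acid reaches Atf4 by another kinase, Gcn2, and Atf4 then induces genes of amino acid synthesis and transport and of tRNA charging. Myoblast differentiation is known for activity of this response. Atf4 and Xbp1 are controlled after transcription, so mRNA levels show only part of their state, and the tables hold a single value per symbol, so spliced and unspliced *Xbp1* mRNA cannot be told apart.

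Letter patterns known as binding sites of these factors occur in some of the members' promoters, so those windows are shown before the values. Promoters came from RefSeq on GRCm38.p6, 250 bases before to 50 bases after each annotated start, and all 10 members were matched. Motifs were sought on both strands: ERSE (CCAAT and CCACG with 9 free bases between), bound by Atf6 with NF-Y, ERSE-II (ATTGG and CCACG with 1 free base between), the amino acid response element CARE (TGATGNAA), bound by Atf4 with C/EBP factors, a UPRE core (TGACGTGG) and the full CRE (TGACGTCA). *Hspa5* (chr2:34771840-34772089, plus strand) held an ERSE at positions -65 to -47 from the start. *Hsp90b1* (chr10:86705445-86705694, minus strand) held 2, at -212 to -194 and, reversed, at -107 to -89. *Herpud1* (chr8:94386179-94386428, plus strand) held an ERSE-II at -52 to -42 and a reversed CARE at -112 to -105. *Chac1* (chr2:119350992-119351241, plus strand) held a reversed CARE at -193 to -186, and *Asns* (chr6:7693210-7693459, minus strand) held a CARE at -23 to -16. The *Trib3* window (minus strand) held a reversed CARE past the start, at 15 to 22, and 30 bases around it are given (chr2:152344028-152344057). For the other 5 the 250 bases before the start are given, with the motifs in capitals and each read 5' to 3' on the gene's own strand.
Hspa5: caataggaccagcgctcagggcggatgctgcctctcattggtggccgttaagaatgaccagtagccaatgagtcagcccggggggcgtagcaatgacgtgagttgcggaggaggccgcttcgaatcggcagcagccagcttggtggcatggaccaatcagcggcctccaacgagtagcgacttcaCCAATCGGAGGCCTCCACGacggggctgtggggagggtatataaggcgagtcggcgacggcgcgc
Hsp90b1: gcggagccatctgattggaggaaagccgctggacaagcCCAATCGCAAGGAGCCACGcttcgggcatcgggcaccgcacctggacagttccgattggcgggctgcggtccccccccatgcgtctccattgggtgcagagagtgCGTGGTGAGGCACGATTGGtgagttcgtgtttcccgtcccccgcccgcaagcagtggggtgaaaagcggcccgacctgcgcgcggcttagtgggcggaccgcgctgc
Herpud1: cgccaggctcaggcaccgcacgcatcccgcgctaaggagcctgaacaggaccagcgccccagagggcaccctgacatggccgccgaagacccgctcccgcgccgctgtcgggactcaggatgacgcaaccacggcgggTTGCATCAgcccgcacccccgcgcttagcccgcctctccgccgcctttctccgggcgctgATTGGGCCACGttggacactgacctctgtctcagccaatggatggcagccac
Chac1: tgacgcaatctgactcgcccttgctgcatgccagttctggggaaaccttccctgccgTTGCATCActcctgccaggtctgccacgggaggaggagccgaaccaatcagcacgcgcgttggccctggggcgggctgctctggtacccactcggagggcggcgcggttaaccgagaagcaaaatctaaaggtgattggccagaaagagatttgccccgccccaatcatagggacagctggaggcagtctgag
Asns: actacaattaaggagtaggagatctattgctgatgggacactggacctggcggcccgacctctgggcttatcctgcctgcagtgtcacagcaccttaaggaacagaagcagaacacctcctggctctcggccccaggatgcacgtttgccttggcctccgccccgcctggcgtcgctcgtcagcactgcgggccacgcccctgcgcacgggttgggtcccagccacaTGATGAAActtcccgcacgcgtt
Trib3: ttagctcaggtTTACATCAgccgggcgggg

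Of 32851 promoters of that length, 0.119% held an ERSE, 0.0365% an ERSE-II, 3.97% a CARE, 0.676% the UPRE core and 1.79% the CRE. Among the members ERSE was found in 2, ERSE-II in 1 and CARE in 4, and no motif overlapped another. The windows of *Atf4*, *Ddit3*, *Xbp1* and *Dnajb9* held none of the 5, and no member held the UPRE core or the CRE. The side of the start depends on the annotation. By the outer gene bounds of GENCODE, the *Trib3* CARE lies before the start, and the *Asns* CARE and *Hspa5* ERSE lie after it. These matches are descriptions of letters and not of binding.

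All 10 members passed the filter on low counts, which left 14187 genes, and the lowest value of any member in any library was 128 estimated counts (*Trib3*). Library totals ran from 22197606 to 23684077 estimated counts. The libraries labelled KO held more *Runx1* mRNA than WT on all 4 days, by 1.28-fold to 2.03-fold. Counts per gene symbol do not show whether the protein was lost, so directions below are those of libraries labelled KO. Replicate 2 of KO day 1 stood apart from its replicates, with a chi-square of 64.9 and 64.5 per degree of freedom against them. The other replicate pairs reached at most 29.0, in WT day 6 replicates 2 and 3. Over 13265 genes, the deviation of KO day 1 replicate 2 from its group correlated with GC content at r = -0.62. For WT day 6 replicates 2 and 3 this r was 0.22 and -0.22. Genes are not independent replicates in these correlations. Myoblast markers (*Myod1*, *Myf5*, *Des*, *Cdh15*) summed to between 1010 and 1966 TPM (a level scaled for transcript length and library depth) in all libraries. Leukocyte, endothelial, epithelial and adipocyte markers summed to at most 17 TPM in any library, with *Adgre1* and *Adipoq* at 0, and neuronal markers to 22.8 to 150 TPM, with *Snap25* at 0.

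On the TPM scale, which allows levels of different genes to be compared, the members covered a wide range. The median level over the 23 libraries was 425 TPM for *Hsp90b1* (the chaperone Grp94), 410 for *Atf4* and 311 for *Hspa5* (the chaperone BiP), and the ranges of these 3 overlapped. *Herpud1*, a membrane protein of the degradation machinery, followed at 176 TPM, *Xbp1* at 121 TPM and *Asns*, asparagine synthetase, at 81.8 TPM. *Dnajb9*, a co-chaperone of BiP, had a median of 39.5 TPM, *Chac1*, which breaks down glutathione, 37.4 TPM, and *Ddit3*, the transcription factor Chop, 32.5 TPM. *Trib3*, a pseudokinase induced by Atf4 and Chop, was lowest at 17 TPM, between 4.93 and 44.8 TPM. The order of these 4 was not fixed, since their ranges overlapped.

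**Figure D1:**
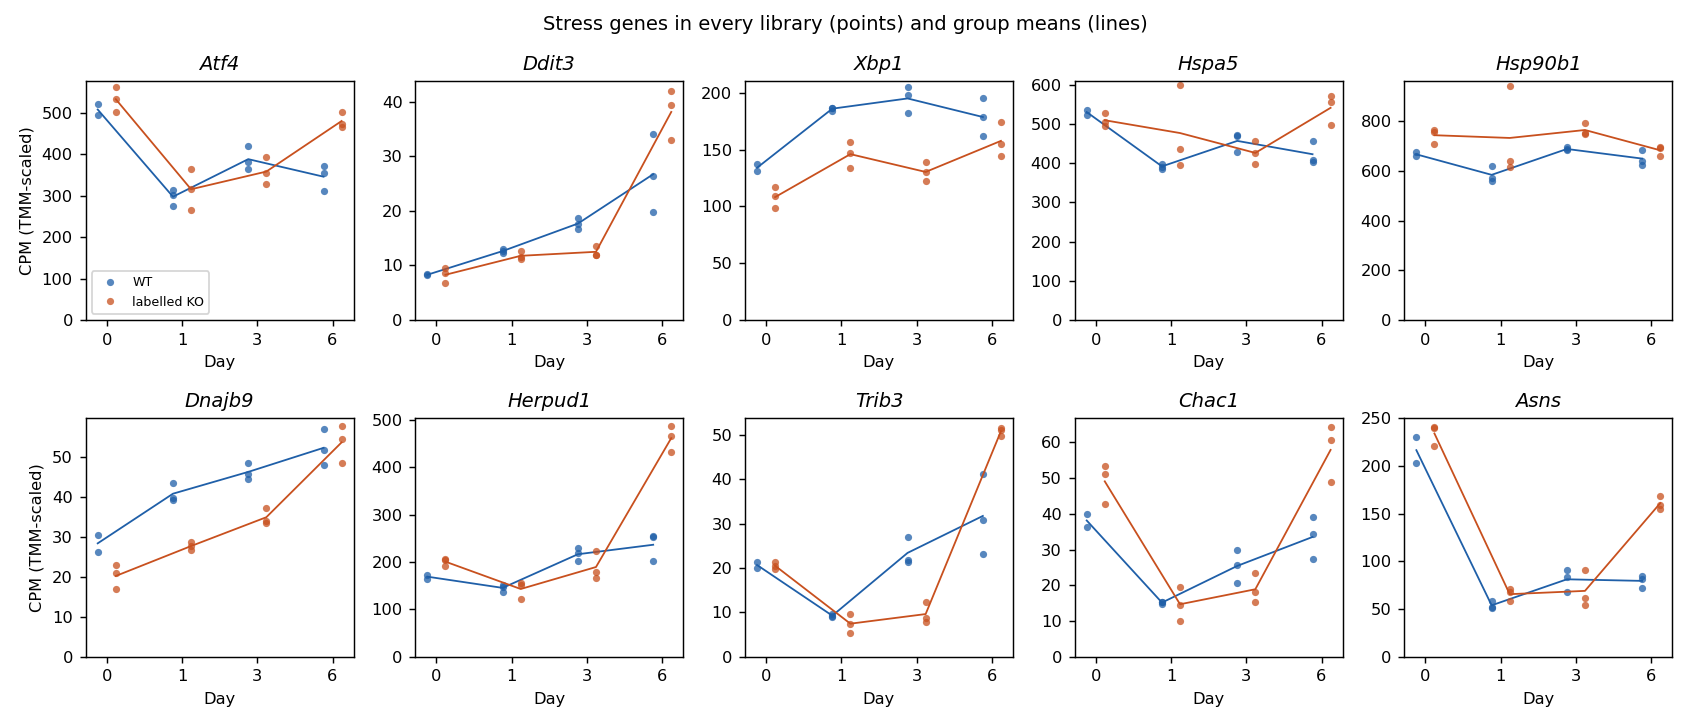
Normalised read count of each member (CPM, counts scaled to a common library size, on an axis from 0) in every library by day, with WT in blue, labelled KO in orange and lines through the group means. On day 6 all 3 KO values lay above all 3 WT values for *Atf4*, *Hspa5*, *Herpud1*, *Trib3*, *Chac1* and *Asns*. How often this held among all tested genes was not counted.

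The study compared each time of differentiation with growth medium, to find what changes as myoblasts differentiate. In the first day after serum was lowered the members moved in opposite directions. *Asns* fell by 4.02-fold in WT and 3.57-fold in KO. In WT *Asns* stood at 203 and 230 CPM (counts scaled to a common library size after TMM normalization) on day 0 and at 52.6, 51.2 and 58.0 CPM on day 1, whereas in KO it stood at 221, 241 and 240 and then at 70.6, 58.2 and 68.0 CPM. The groups did not overlap in either genotype. The log2 fold change (log2FC) was -2.01 ± 0.147 (SE, Benjamini-Hochberg adjusted p = 8.9e-11 from edgeR's quasi-likelihood test over all 14187 genes, threshold 0.05) in WT and -1.83 ± 0.136 (adjusted p = 1.38e-10) in KO. *Chac1* (log2FC -1.33 in WT, -1.74 in KO), *Trib3* (-1.16 and -1.46) and *Atf4* itself (-0.77 and -0.76) also fell in both. *Ddit3* (0.61 in WT, 0.50 in KO), *Xbp1* (0.47 and 0.43) and *Dnajb9* (0.53 and 0.46) rose in both, though the *Ddit3* call in KO was lost without KO day 0 replicate 3 (adjusted p = 0.0663). In WT 3 members rose and 5 fell, where 27.1% and 27.6% of all tested genes did, and in KO 3 rose and 5 fell, where 27.2% and 25.2% did.

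*Hspa5* fell in WT on day 1 (log2FC -0.44, adjusted p = 0.00257), from 524 and 537 CPM to 399, 386 and 391 CPM. In KO its values of 436, 599 and 396 CPM on day 1 overlapped those of day 0, and the log2FC of -0.10 did not pass (adjusted p = 0.466). The highest of them, 599 CPM, is the library that stood apart, and without it *Hspa5* fell in KO too (log2FC -0.29, adjusted p = 0.00199), as did *Hsp90b1* in both genotypes (log2FC -0.24, adjusted p = 0.00158 in KO and -0.14, adjusted p = 0.045 in WT). In the main fit *Herpud1* passed in KO only (log2FC -0.49, adjusted p = 0.000561, against -0.22 in WT, adjusted p = 0.129). With only the groups compared it passed in WT too (adjusted p = 0.00596). The change since day 0 did not differ between the genotypes by the interaction test for any of the 10 members on day 1, where 2.64% of tested genes had a more positive and 1.31% a more negative change in KO, nor without that library.

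From day 1 to day 3 more members rose in WT than in KO, though this count was not itself tested. When each library was left out in turn, 5 to 8 members passed in WT and 1 to 5 in KO. In WT 6 rose and none fell, where 11% of tested genes rose and 8.68% fell. These were *Trib3* (log2FC 1.34, adjusted p = 1e-05), *Chac1* (0.75), *Asns* (0.59), *Herpud1* (0.57), *Ddit3* (0.49) and *Atf4* (0.38). *Trib3* went from 9.69, 8.95 and 9.18 CPM to 27.1, 21.4 and 21.8 CPM, with no overlap. In KO 2 members rose, *Herpud1* (log2FC 0.41) and *Dnajb9* (0.33), where 15.5% of tested genes rose and 11.2% fell. *Trib3* in KO read 9.65, 5.36 and 7.39 CPM on day 1 and 12.3, 7.95 and 8.66 CPM on day 3, and these groups overlapped (log2FC 0.37, adjusted p = 0.177). Its log2FC was 0.15 without KO day 1 replicate 2 (adjusted p = 0.621). Without the library that stood apart the rise of *Herpud1* in KO missed the threshold (log2FC 0.27, adjusted p = 0.0501), as it did without KO day 3 replicate 1 or with only the groups compared (highest adjusted p = 0.108). Without the same library *Hsp90b1* rose (log2FC 0.26, adjusted p = 0.00169) and *Xbp1* fell (-0.24, adjusted p = 0.0321) in KO, and *Hsp90b1* (0.23, adjusted p = 0.00204) and *Hspa5* (0.21, adjusted p = 0.0165) rose in WT too. The rise of *Dnajb9* in KO was lost without KO day 3 replicate 3, with only the groups compared and by limma on log2 TPM (highest adjusted p = 0.0797). The call of *Ddit3* in WT was lost without any of 4 libraries (highest adjusted p = 0.0765).

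From day 3 to day 6 most members rose in KO. In WT only *Ddit3* passed in the main fit (log2FC 0.59, adjusted p = 0.0076), where 4.87% of tested genes rose and 4.92% fell. It went from 17.6, 16.7 and 18.7 CPM to 34.0, 26.4 and 19.7 CPM, the groups did not overlap, and the call was lost without the highest library, WT day 6 replicate 1 (adjusted p = 0.0920). *Trib3* read 0.44 in WT (adjusted p = 0.118), with overlapping groups. When each library was left out in turn, 0 to 2 members passed in WT. In KO 9 of 10 members rose and none fell, where 20.2% of tested genes rose and 21.2% fell. *Hsp90b1* was the exception (log2FC -0.16, adjusted p = 0.218). The largest log2FC in KO was that of *Trib3*, 2.40 ± 0.183 (adjusted p = 6.28e-10), a 5.28-fold rise. *Chac1* (1.62), *Ddit3* (1.61), *Herpud1* (1.29) and *Asns* (1.22) each rose by over 2-fold, and *Dnajb9* (0.62), *Atf4* (0.42), *Hspa5* (0.35) and *Xbp1* (0.27) by less. For these 9 the day 3 and day 6 KO values did not overlap, but how many of all tested genes showed no overlap was not counted. The call of *Xbp1* was lost without KO day 3 replicate 2 or KO day 6 replicate 3 (highest adjusted p = 0.1) and that of *Hspa5* without KO day 3 replicate 2 (adjusted p = 0.0524).

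**Figure D2:**
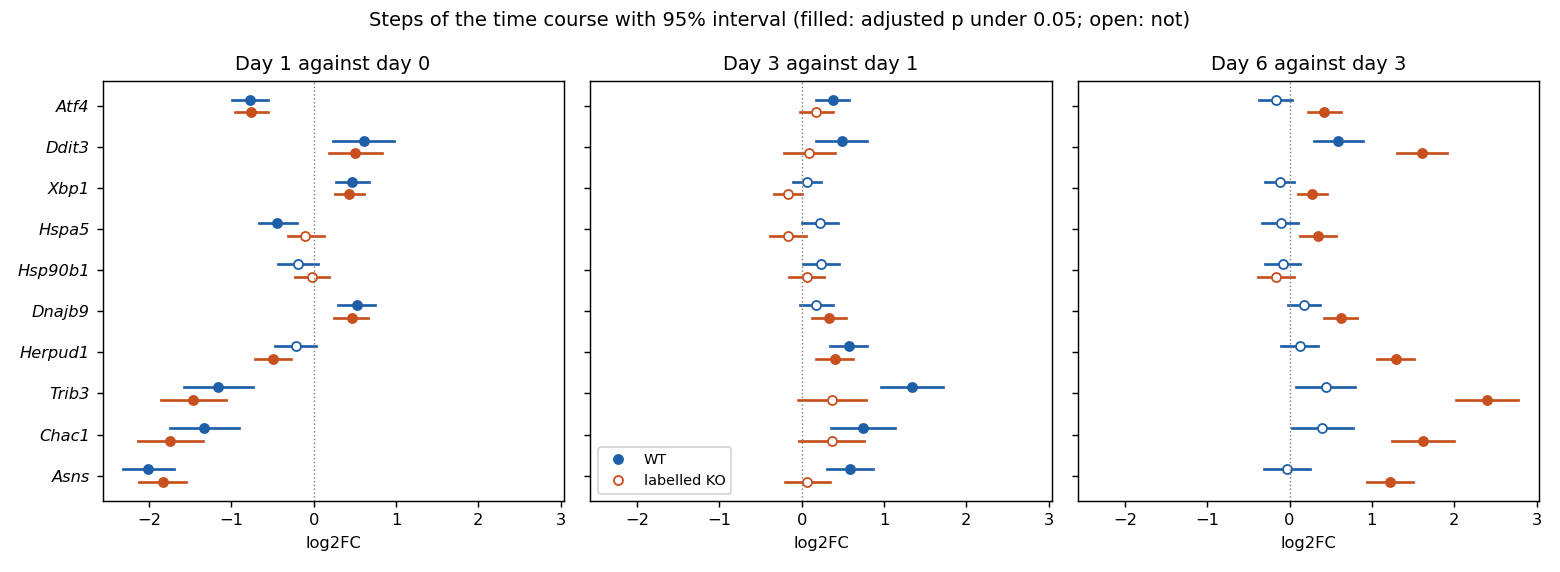
Log2FC (x axis) of each member with its 95% interval for the steps day 0 to 1, day 1 to 3 and day 3 to 6, with WT in blue, labelled KO in orange, filled points past an adjusted p of 0.05 and open points not past it. In the last step 9 KO points are filled and lie above 0, and 1 WT point, *Ddit3*, is filled.

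The difference between genotypes in this last step was tested directly, with a contrast chosen after seeing the data. It passed for the same 9 members, all with a more positive change in KO, where 6.36% of tested genes had a more positive and 5.99% a more negative change. The sizes were 1.96 ± 0.249 log2 units for *Trib3* (adjusted p = 3.52e-05), 1.25 ± 0.189 for *Asns* (0.000153), 1.22 ± 0.257 for *Chac1* (0.0029) and 1.16 ± 0.152 for *Herpud1* (4.51e-05). *Ddit3* (1.01, adjusted p = 0.00167) and *Atf4* (0.59, adjusted p = 0.00615) followed. *Hspa5* (0.46, adjusted p = 0.0424), *Dnajb9* (0.44, adjusted p = 0.0327) and *Xbp1* (0.40, adjusted p = 0.033) stood close to the threshold, and their calls were lost in 18, 8 and 7 of 31 alternative analyses. By the comparisons of genotypes at each day, *Trib3* and *Ddit3* were lower in KO on day 3 and higher on day 6. *Xbp1* and *Dnajb9* were lower on day 3 and did not pass on day 6, and *Asns*, *Chac1*, *Herpud1*, *Atf4* and *Hspa5* did not pass on day 3 and were higher on day 6.

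In growth medium, where the comparison asks how myoblasts of the 2 labels differ before differentiation, 8 of the 10 members did not pass the test. *Xbp1* was lower in KO (137 and 131 CPM in WT against 109, 117 and 98.6 CPM, log2FC -0.31, adjusted p = 0.0261), and so was *Dnajb9* (26.4 and 30.5 CPM against 21.0, 22.9 and 16.9 CPM, log2FC -0.49, adjusted p = 0.00286). Neither pair of groups overlapped. No member was higher by the test, where 7.36% of tested genes were higher and 10.1% lower, but with only the groups compared *Herpud1* (log2FC 0.25, adjusted p = 0.00872) and *Chac1* (log2FC 0.36, adjusted p = 0.0154) passed as higher. The call of *Xbp1* was lost without any of 4 libraries (highest adjusted p = 0.23) and that of *Dnajb9* without WT day 0 replicate 2 (adjusted p = 0.0864).

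On day 1 *Xbp1* and *Dnajb9* were again lower in KO. *Dnajb9* read 39.9, 39.3 and 43.5 CPM in WT and 27.9, 28.7 and 26.7 CPM in KO (log2FC -0.56 ± 0.0972, adjusted p = 7.33e-05). *Xbp1* read 184, 187 and 187 CPM in WT and 147, 134 and 157 CPM in KO (log2FC -0.35, adjusted p = 0.00209). In all 2 members were higher and 2 lower, where 22.9% and 19.2% of tested genes were. Both higher members, *Hspa5* (log2FC 0.28) and *Hsp90b1* (log2FC 0.33), rest on the KO library that stood apart. *Hsp90b1* read 942 CPM in it against 638 and 617 CPM in its replicates and 558, 621 and 573 CPM in WT. *Hsp90b1* shares 10.3% of its exon bases with the opposite-strand gene *1810014B01Rik*, which had at most 54 counts in any library. Without KO day 1 replicate 2, the library that stood apart, the log2FC was 0.08 for *Hsp90b1* (adjusted p = 0.282) and 0.06 for *Hspa5* (adjusted p = 0.53), and *Xbp1* and *Dnajb9* still passed.

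On day 3 the KO libraries stood lower for 4 members and higher for none, where 19.2% of tested genes were lower and 24% higher. *Trib3* differed most: 27.1, 21.4 and 21.8 CPM in WT against 12.3, 7.95 and 8.66 CPM in KO, a 2.43-fold lower level (log2FC -1.28 ± 0.185, adjusted p = 5.41e-06). The 2 groups did not overlap. *Xbp1* read 205, 198 and 182 CPM in WT against 139, 122 and 130 CPM in KO (log2FC -0.58, adjusted p = 7.73e-06). *Ddit3* read 17.6, 16.7 and 18.7 CPM against 12, 11.9 and 13.6 CPM (log2FC -0.50, adjusted p = 0.00782). Reads of *Ddit3* may include some of its neighbour *Mars* on the opposite strand, since the genes share 68 exon bases, 3.97% of the exon bases of *Ddit3*, and use of strand in counting is not given in the sources used here. *Dnajb9* was lower as well (log2FC -0.41, adjusted p = 0.00149), with no overlap. *Chac1* (log2FC -0.43, adjusted p = 0.0673) missed the threshold here and passed it in 14 of 31 alternative analyses. *Herpud1* (log2FC -0.19), *Asns* (-0.23) and *Atf4* (-0.12) did not pass here but did in 5, 3 and 2 of the 31. When each library was left out in turn, 4 to 7 members passed. Since day 0 the change of *Trib3* differed between genotypes by -1.27 ± 0.271 log2 units (adjusted p = 0.00279), the only such call among the members on day 3 in this fit, where 6.65% of tested genes had a more positive change in KO and 4.06% a more negative one. The same interaction passed for *Chac1* (-0.79, adjusted p = 0.0657 here) in 13 and for *Herpud1* (-0.44, adjusted p = 0.0904 here) in 12 of 31 alternative analyses.

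On day 6 the KO libraries stood higher for 7 members and lower for none, where 22% of tested genes were higher and 20.8% lower. The median log2FC of the 10 members was 0.49 on day 6 and -0.32 on day 3, where that of all tested genes was 0.00 and 0.04. *Asns* read 85.1, 81.5 and 72.0 CPM in WT against 155, 169 and 159 CPM in KO, a 2.02-fold difference (log2FC 1.02 ± 0.133, adjusted p = 1.36e-06). *Herpud1* read 253, 255 and 201 CPM against 433, 486 and 465 CPM, a 1.95-fold difference (log2FC 0.97 ± 0.108, adjusted p = 1.24e-07). Neither gene's groups overlapped, and both calls held in all 31 alternative analyses. *Chac1* read 34.3, 39.0 and 27.3 CPM against 48.8, 60.7 and 64.2 CPM (log2FC 0.79 ± 0.177, adjusted p = 0.000899). *Trib3*, which had been lower in KO on day 3, read 41.3, 30.9 and 23.1 CPM in WT against 49.9, 51.1 and 51.6 CPM in KO (log2FC 0.68 ± 0.167, adjusted p = 0.00207). Its WT libraries were spread widely (SD 9.15 CPM) and its KO libraries narrowly (SD 0.875 CPM), and the groups did not overlap.

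*Atf4*, which encodes a transcription factor of this response, was also higher: 356, 371 and 311 CPM in WT against 467, 472 and 502 CPM in KO (log2FC 0.47 ± 0.0972, adjusted p = 0.000369). *Ddit3* read 34.0, 26.4 and 19.7 CPM against 32.9, 42.0 and 39.4 CPM (log2FC 0.51 ± 0.137, adjusted p = 0.00399). The *Ddit3* groups overlapped, and the call was lost without WT day 6 replicate 3 (adjusted p = 0.0574). Of the chaperones *Hspa5* was higher (408, 457 and 404 CPM against 497, 572 and 555 CPM, log2FC 0.36, adjusted p = 0.00737), though not without WT day 6 replicate 1 or 3 nor by limma on log2 TPM (highest adjusted p = 0.104). *Hsp90b1* (log2FC 0.07, 95% interval -0.14 to 0.29), *Dnajb9* (0.04, -0.16 to 0.23) and *Xbp1* (-0.18, -0.36 to -0.01, adjusted p = 0.0876) did not pass, and *Xbp1* passed in 6 of 31 alternative analyses.

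Myotube markers moved with the genotype on the same days. The summed TPM of *Myog*, *Myh3*, *Ckm*, *Acta1* and *Tnnt3* was 1660 to 2043 in WT and 10403 to 12105 in KO on day 6, and 2114 to 2303 against 3366 to 6139 on day 3. All 5 were higher in KO by the test on days 1, 3 and 6, where 22.9%, 24% and 22% of tested genes were higher, and none on day 0, where 7.36% were. Other marker sums also differed between the genotypes on day 6. Myoblast markers summed to 1148 to 1368 TPM in WT and 1830 to 1966 TPM in KO (1010 to 1018 against 1367 to 1422 on day 0), and most of the day 6 sum was *Des*, a muscle intermediate filament, at up to 992 TPM in WT and 1589 TPM in KO. Neuronal markers summed to 44.9 to 52.3 TPM in WT and 22.8 to 26.4 TPM in KO, nearly all of it *Tubb3*, with *Snap25* at 0 in both genotypes and *Rbfox3* at 0 in KO and near 0 in WT. Leukocyte markers summed to 4.14 to 7.73 TPM in WT and 15.2 to 17 TPM in KO, all of the latter from *Cd68*, with *Ptprc* and *Adgre1* at 0 there. The part of these markers in the member differences was not tested, and in these bulk samples fewer cells of a type and less RNA per cell cannot be told apart.

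**Figure D3:**
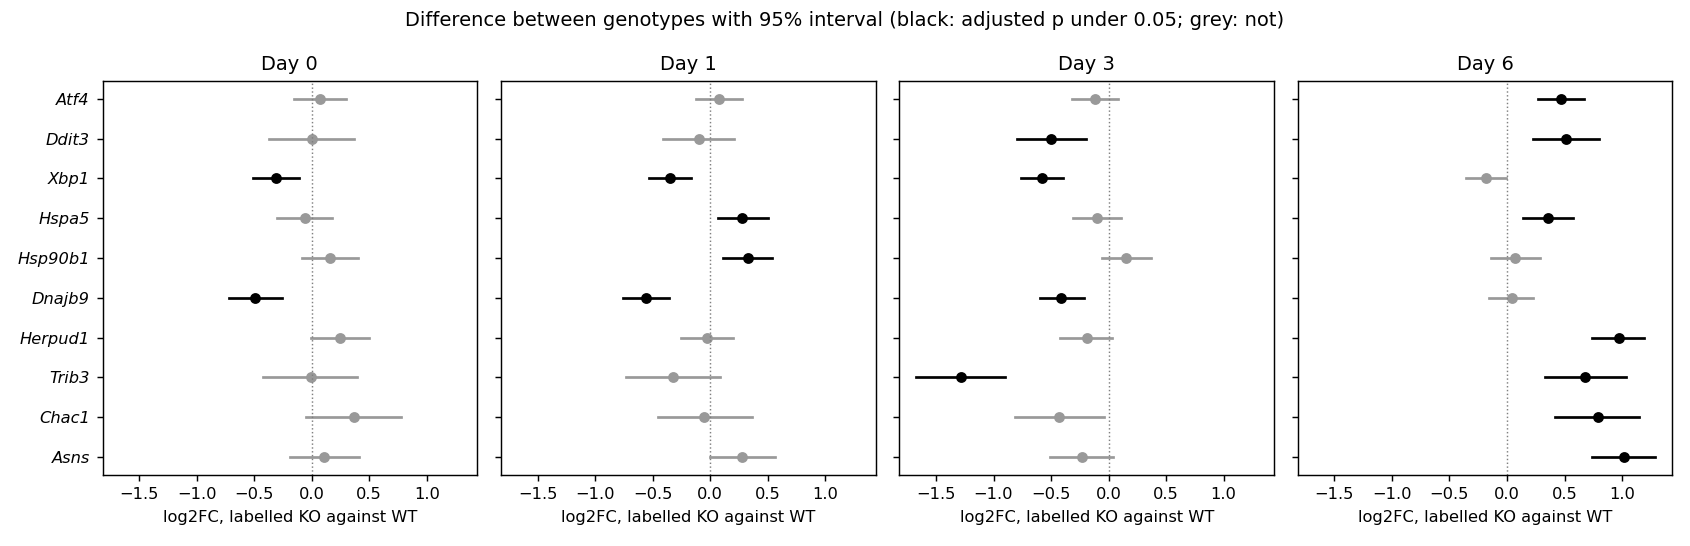
Log2FC of labelled KO against WT (x axis) with its 95% interval for each member on days 0, 1, 3 and 6, with black points past an adjusted p of 0.05 and grey points not past it. *Trib3* lies at -1.28 on day 3 and at 0.68 on day 6, while *Xbp1* lies below 0 with black points on days 0, 1 and 3 and a grey point on day 6.

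Against day 0, 4 members stood higher and 3 lower in WT on day 3 (29.2% and 29% of tested genes), and 3 higher and 5 lower in KO (30.4% and 27.2%). *Asns* was still lower, at 91.4, 83.8 and 68.4 CPM in WT (log2FC -1.41) and at 90.8, 54.3 and 62.1 CPM in KO (log2FC -1.76), below all day 0 values. *Trib3* read a log2FC of 0.18 in WT (adjusted p = 0.452) and was lower in KO (log2FC -1.09, adjusted p = 2.46e-05). *Herpud1* was higher in WT (log2FC 0.35, adjusted p = 0.0157) and read -0.08 in KO, and its WT call was lost without any of 3 libraries (highest adjusted p = 0.0604). *Ddit3*, *Xbp1* and *Dnajb9* were higher in both genotypes, though the *Xbp1* call in KO (log2FC 0.27) was lost without KO day 0 replicate 3 or KO day 3 replicate 1 (highest adjusted p = 0.0708).

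Over the whole course, day 6 set against day 0, 5 members rose and 3 fell in WT (32.6% and 31.1% of tested genes) and 5 rose and 1 fell in KO (36.6% and 33.5%). *Ddit3* rose most in both, by 3.21-fold in WT and 4.59-fold in KO, from 8.36 and 8.24 CPM in WT and 9.48, 8.54 and 6.86 CPM in KO on day 0. *Dnajb9* rose by 1.84-fold and 2.66-fold, *Trib3* by 1.53-fold and 2.48-fold, *Herpud1* by 1.40-fold and 2.30-fold and *Xbp1* by 1.33-fold and 1.46-fold, in WT and KO respectively. *Asns* fell by 2.72-fold in WT and by 1.45-fold in KO. *Atf4* fell in WT (log2FC -0.55) and read -0.15 in KO (adjusted p = 0.17). The change since day 0 was more positive in KO by the interaction test for 3 members, where that of 7.54% of tested genes was more positive and of 5.42% more negative. These were *Asns*, which fell less in KO (0.91 ± 0.196, adjusted p = 0.00249), and *Herpud1* (0.72 ± 0.161, adjusted p = 0.00328) and *Dnajb9* (0.53 ± 0.146, adjusted p = 0.0167). *Atf4* (0.40), *Trib3* (0.69) and *Hspa5* (0.42) missed the threshold (adjusted p = 0.0711, 0.0816 and 0.0823). *Trib3* passed with a replicate block (0.68, adjusted p = 0.0475), and leaving out each library in turn gave 2 to 6 calls. The call of *Dnajb9* was lost without any of 4 libraries (highest adjusted p = 0.143), and the fall of *Hspa5* in WT (log2FC -0.33) was lost in 11 of 31 alternative analyses. Comparisons that share the day 0 libraries are not independent of each other.

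The other genes of the pathway were taken from 4 lists, also chosen with earlier results of these data known. Their day 6 medians below stand beside a median log2FC of 0.00 over all tested genes, with 22% higher and 20.8% lower. Of 19 tested genes of amino acid synthesis and transport, 14 were higher and 1 lower in KO on day 6, with a median log2FC of 0.81. *Phgdh*, the entry enzyme of serine synthesis, stood at 112 ± 10.3 CPM in WT and 289 ± 19.8 CPM in KO (SD, n = 3 each), with a log2FC of 1.36 (adjusted p = 1.75e-09). The glycine transporter *Slc6a9* (log2FC 1.31) followed, and the neutral amino acid transporter *Slc1a4* was the lower gene (log2FC -0.71). *Slc1a4* was lower in KO on the other days too (log2FC -0.65, -1.01 and -1.20 on days 0, 1 and 3). On day 3 the same list had 4 higher and 5 lower genes, where 24% and 19.2% of all tested genes were, among them *Psat1* (log2FC 0.57), another enzyme of serine synthesis, and *Aldh1l2* (log2FC -1.57), a mitochondrial folate enzyme.

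Of 12 cytosolic aminoacyl-tRNA synthetases, which charge tRNAs with amino acids, 10 were higher and none lower in KO on day 6, with a median log2FC of 0.49. *Wars* (log2FC 0.80, adjusted p = 8.05e-09) and *Tars* (log2FC 0.70, adjusted p = 9.04e-08) led. *Tars* was already higher on days 0 and 1 (log2FC 0.49 and 0.60). On day 1, 6 of the 12 were higher and 1 lower in KO, where 22.9% and 19.2% of all tested genes were. Without KO day 1 replicate 2, the library that stood apart, 3 were higher and 1 lower. In that fit 2797 genes were higher and 2673 lower of 14171. On day 3 *Tars* was higher (log2FC 0.29) and *Sars* (log2FC -0.56) and *Eprs* (log2FC -0.34) lower. Within WT 11 of the 12 had fallen by day 6, *Aars* by 0.98 on the log2 scale, and within KO 10 had, where 31.1% and 33.5% of all tested genes had fallen.

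Of 16 regulators of the integrated stress response, 6 were higher and 3 lower in KO on day 6, with a median log2FC of 0.20. *Fgf21*, a secreted hormone induced by Atf4, stood at 12.7 ± 1.00 CPM in WT and 53.2 ± 4.89 CPM in KO (SD, n = 3 each, log2FC 2.07, adjusted p = 6.68e-09). *Eif2ak2*, the double-stranded RNA kinase Pkr that also phosphorylates eIF2alpha and is induced by interferon, read 15.3 ± 3.25 and 54.0 ± 2.56 CPM (log2FC 1.82, adjusted p = 1.32e-09) and was already higher on day 3 (log2FC 0.90). *Eif2ak3*, which encodes Perk, was lower (log2FC -0.43), as was the transcription factor *Atf5* (log2FC -0.57). On day 3 *Atf5* (log2FC -1.11) and *Nupr1* (log2FC -1.0) were lower in KO.

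Of 34 tested genes of folding and degradation in the endoplasmic reticulum, 7 were higher and 8 lower in KO on day 6, with a median log2FC of -0.02. *Derl1*, a degradation channel subunit, stood at 125 ± 1.53 CPM in WT and 260 ± 17.9 CPM in KO (SD, n = 3 each, log2FC 1.05, adjusted p = 1.77e-10), and the chaperone *Dnajb11* was higher by 0.45. *Ero1l*, the oxidase of disulfide formation (log2FC -0.95), and *Sec24d*, a coat subunit of export vesicles (log2FC -0.66), were lower, as they were on day 3 (log2FC -1.52 and -0.83). From day 3 to day 6 the change was more positive in KO, by the contrast chosen after seeing the data, for 16 of 19 amino acid genes, 12 of 12 synthetases, 7 of 16 stress response regulators and 2 of 34 folding genes, and more negative for 1 gene of the last list. Over all tested genes the shares were 6.36% more positive and 5.99% more negative, so the folding genes stood near the background. The lists are described by these counts, and no test compared them with each other or with other genes.

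**Figure D4:**
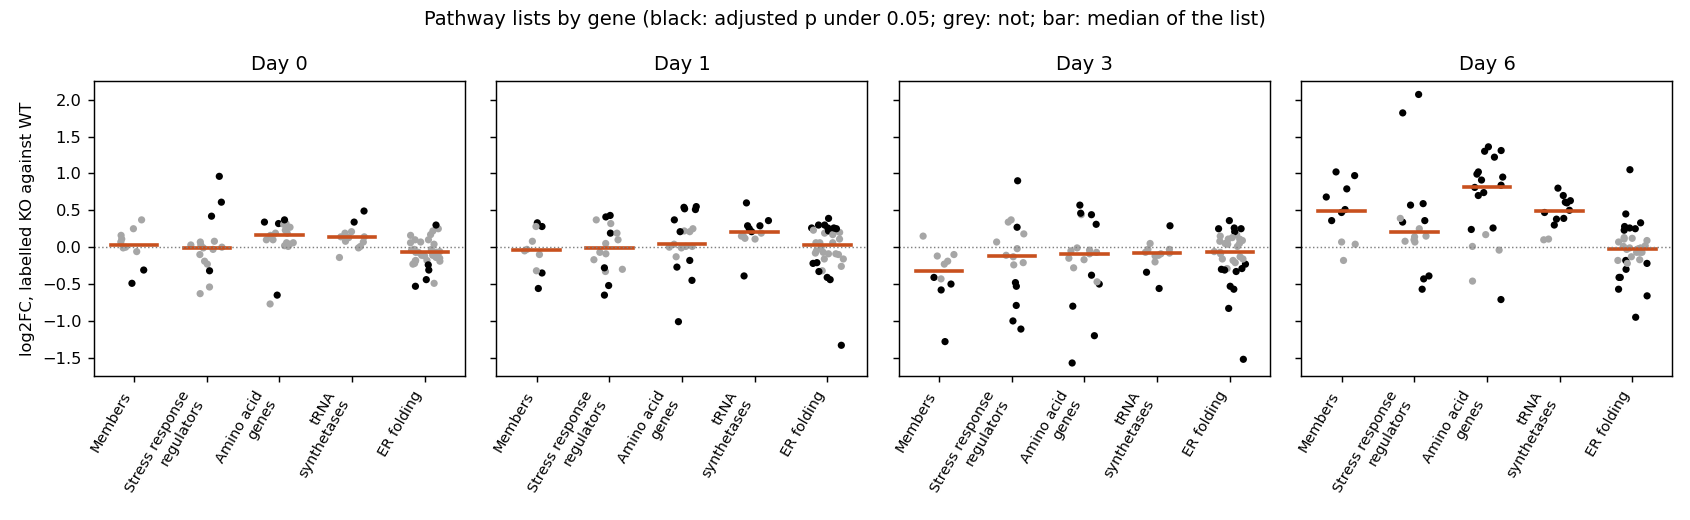
Log2FC of labelled KO against WT (y axis) on days 0, 1, 3 and 6 for every tested gene of the 10 members and of the 4 pathway lists, with black points past an adjusted p of 0.05, grey points not past it and a bar at each median. On day 6 the medians were 0.49 for the members, 0.81 for the amino acid genes, 0.49 for the synthetases, 0.20 for the stress response regulators and -0.02 for the folding genes.

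The genes whose profile over the 23 libraries was most like that of each member are given as a description, by Pearson's r of log2 CPM, over libraries that share 8 groups and so are not independent. For *Asns* they were *Nars* and *Mthfd2* (r = 0.98 each) and *Cars* (0.97), and for *Chac1* the transporter chain *Slc3a2* (0.96), *Hax1* (0.95) and the transporter *Slc7a5* (0.94). For *Herpud1* they were *Cyb5r1* (0.97), *Ppp1r15a* (0.95) and *F11r* (0.94), for *Trib3* *Nudt8*, *Nr4a1* and *Nt5dc3* (0.92 each), and for *Ddit3* *Hist1h1c* (0.97), *Smox* (0.96) and *Tnfrsf23* (0.95). *Atf4* was most like *Fads3* (0.96), *Ecsit* (0.95) and its fellow member *Asns* (0.95). *Dnajb9* was most like *Egln1* and *Il33* (0.97 each) and *Mib2* (0.96), and *Xbp1* like *Fbxw9* (0.95), *Cbr2* (0.94) and *Abhd4* (0.94). The chaperones had less close matches, of which *Csnk2a1* (0.84) was the closest for *Hspa5* and *Zranb2* (0.88) for *Hsp90b1*.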

How the data were processed

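Poly(A) RNA of C2C12 cells was sequenced in 23 libraries of 8 groups. The submitters' processing notes name Bowtie2, RSEM and the build mm10, with no versions. The deposited values are estimated counts per gene symbol, already whole numbers (rounding changed 0 values), and TPM computed by the authors from the same libraries. A further 0 columns had no sample. Strand use, filters and annotation version are not given in the sources used here.

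The members and the pathway lists were chosen with earlier results of these data known. Counts were tested with edgeR 4.0.16 in R 4.3.3: filterByExpr (minimum count 10, minimum total 15), TMM scaling, a group-means model over all libraries, the quasi-likelihood F-test and Benjamini-Hochberg adjustment over 14187 genes, threshold 0.05. There were 17 planned contrasts and 1 chosen after seeing the data, the genotype difference in the day 3 to day 6 step. The standard error of a log2FC was derived from the F statistic. The procedure was tested on simulated counts. Named genes were the 10 members, *Runx1*, and from each pathway list at most 2 genes per direction, by size of log2FC, for each contrast of genotypes and of day 6 with day 0, past the threshold, with at least 5 CPM in a group and no overlap, plus the 3 tested genes most like each member. *Slc7a3* and *Derl3* did not pass the filter.

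Depth was 22197606 to 23684077 estimated counts per library. No molecular identifiers are described, so counts are not known to be independent molecules. Alternatives were RLE scaling, library size only, no filter, only the groups compared, a replicate block, DESeq2 1.42.0, limma 3.58.1 on log2(TPM + 1) and log2(TPM + 0.1), and omission of each library. Promoter windows were searched for motifs as letters. Libraries with equal replicate numbers had low correlations of deviations (mean -0.094 to 0.0488 over the comparisons of groups, single pairs -0.24 to 0.116). With 2 or 3 libraries per group this cannot exclude shared cultures or batches.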

Additional observations from a re-analysis of the deposited data

Results flagged for a closer look

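The change over time differed between the genotypes, by a test of the difference itself, in 13 cases among the members. In these the value is the change in libraries labelled KO minus the change in WT, in log2 units. Since day 0 it was -1.27 for *Trib3* on day 3, and on day 6 it was 0.91 for *Asns*, 0.72 for *Herpud1* and 0.53 for *Dnajb9*. In the step from day 3 to day 6, a contrast chosen after seeing the data, it was 1.96 for *Trib3*, 1.25 for *Asns*, 1.22 for *Chac1*, 1.16 for *Herpud1*, 1.01 for *Ddit3*, 0.59 for *Atf4*, 0.46 for *Hspa5*, 0.44 for *Dnajb9* and 0.40 for *Xbp1*. The 2 sets of contrasts share the day 3 or day 6 libraries and are not independent. No group of libraries was large enough for a check of single outlying values.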

How the results depend on the processing

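Of 122 member differences followed (those called, or with a log2FC of at least 0.2), 93 were called. Of these 71 held in all 31 alternatives and 22 were lost in at least 1, while 23 of the 29 others passed in at least 1. None of the 122 reversed. Of 58 smaller uncalled differences, 25 changed sign and 14 passed in at least 1 alternative, and those printed are given as values only. For the number of members called, fitting only the groups compared gave 4 in place of 2 for KO against WT on day 0 (2 higher and 2 lower), 2 in place of 4 on day 1, 0 in place of 2 for day 3 against day 1 in KO, 5 in place of 1 for the interaction on day 3 and 6 in place of 3 on day 6. Limma on log2(TPM + 1) and log2(TPM + 0.1) each gave 2 for KO against WT on day 1, 8 in place of 4 on day 3 and 4 for the interaction on day 3. That interaction also gave 2 with RLE scaling, 3 with no filter and 3 with DESeq2. No filter gave 2 in place of 1 for day 6 against day 3 in WT and 5 for the interaction on day 6. The shares of all tested genes called under these settings are not given here, so a general gain or loss of calls cannot be told apart. The cause of these shifts was not tested.

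Leaving out each library in turn gave, for KO against WT, 0 to 3 calls on day 0, 2 to 5 on day 1, 4 to 7 on day 3 and 6 to 8 on day 6. Against day 0 it gave 8 to 9, 5 to 8 and 7 to 8 in WT and 7 to 10, 6 to 8 and 6 to 7 in KO on days 1, 3 and 6. The steps gave 5 to 8 (day 1 to 3) and 0 to 2 (day 3 to 6) in WT and 1 to 5 and 7 to 10 in KO. The interactions gave 0, 1 to 4 and 2 to 6 on days 1, 3 and 6, and the genotype difference in the last step 6 to 9. Calls over all genes moved too. Without KO day 1 replicate 2, 3565 genes were higher and 3537 lower of 14171 for KO against WT on day 3. In the main fit 3403 were higher and 2724 lower of 14187. The replicate block changed 1 call, the *Trib3* interaction on day 6 (0.68, adjusted p = 0.0475, against 0.69, adjusted p = 0.0816, without it), so 4 members passed there. Limma on log2(TPM + 0.1) moved the median log2FC of all genes by -0.15 (KO against WT, day 3), by -0.12 (day 6) and by up to 0.16 (day 3 against day 0, WT). Groups of 2 or 3 libraries limit all of these tests, and a contrast of low genes such as *Trib3* also carries counting error.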
